A study of Mus musculus with 13 samples.

Results

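The keratins of simple and lining epithelia were examined in 13 cell lines grown from mouse mammary tumours. The set was fixed by gene symbol and held 6 genes, all found among the 23845 genes of the deposited tables, which list 46 other keratins besides. Krt8, Krt18, Krt19 and Krt7 are keratins of luminal, single-layered epithelium. Krt4 is a keratin of wet stratified linings such as the oesophagus, and Krt79 is known from the upper hair follicle and its gland ducts. Of the lines, 6 carried the genotype label wild type (WT) and 7 the label JNK knockout, all of strain FVBN/J. JNK stands for the stress-activated kinases that phosphorylate JUN. The series title places the work in HER2-driven breast cancer, but the labels name no HER2 transgene, no Cre or promoter, no removed exon and no animal age. In both groups the tumour cells were first grown on collagen I in low serum and later on uncoated plastic in medium with more serum, insulin and EGF. Each sample was 1 line, so the error given below is the spread between lines. WT replicates 4 and 5 share a number in their titles, and the labels do not say whether they came from 1 animal. Nothing in the labels ties other lines to animals, so p-values cover the spread of these lines and no more.

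Keratins form filaments only as pairs, each pair joining 1 acidic type I chain with 1 basic type II chain. In simple epithelia the main pair is keratin 8 (type II) with keratin 18 (type I), while keratin 7 (type II) and keratin 19 (type I) add to it in ducts and in luminal mammary cells. A chain left without a partner is known to be broken down, and for that reason the balance of the types was followed in each line. Keratin 8 protein is also a known substrate of JNK, although phosphorylation is not seen in RNA. Among the 6 genes Krt18 and Krt19 are type I and Krt8, Krt7, Krt4 and Krt79 are type II.

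Expected counts, the read numbers per gene estimated by the authors' software, summed to between 38300000 and 46700000 per line. Of 13058 genes tested between the groups, 8.51% passed an adjusted p of 0.05, 4.33% as higher and 4.17% as lower in knockout lines (edgeR's quasi-likelihood test with Benjamini-Hochberg adjustment). With limma on log2(TPM + 1) the split was 260 higher and 998 lower genes in place of 566 and 545. TPM is a transcript level scaled for length to a common sum per line, so it allows levels of different genes to be compared. Mapk8 and Mapk9, which encode JNK1 and JNK2, were lower in all 7 knockout lines than in every WT line. The lines were epithelial by their markers, with Epcam at 496 to 1262 TPM in WT lines and 33.4 to 530 TPM in knockout lines. Knockout replicate 2 stood apart, with the lowest Epcam and 3774 TPM of Vim, the gene of the mesenchymal filament protein vimentin, against 17.2 to 705 TPM in the other knockout lines. The same line had the most keratin transcript of all lines (24558 TPM over all keratins). It also had the highest levels of the basal keratin genes Krt5, Krt14 and Krt17 (9482, 8728 and 3436.5 TPM). Fold changes and tested ratios of the keratins examined that rest on that line are given with and without it. The mean share of Krt7 among them and the correlations with genes outside the set are given with it only.

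All 6 keratins passed the filter on low counts and were tested. Of these, 2 fell in the knockout lines (Krt8 and Krt18), 2 rose (Krt4 and Krt79) and 2 did not pass the test (Krt7 and Krt19), beside 8.51% called among all genes tested. The median log2 fold change of all genes tested was 0.01. Krt4, Krt79 and Krt19 passed the filter through the knockout group. Lines with at least 10 reads numbered 1 WT and 6 knockout for Krt4, 4 WT and 7 knockout for Krt79, and 2 WT and 6 knockout for Krt19. So the higher calls of Krt4 and Krt79 come from genes kept because of the group in which they were high. In RNA from whole cultures, fewer cells of a type and less RNA per cell cannot be told apart.

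**Figure D1:**
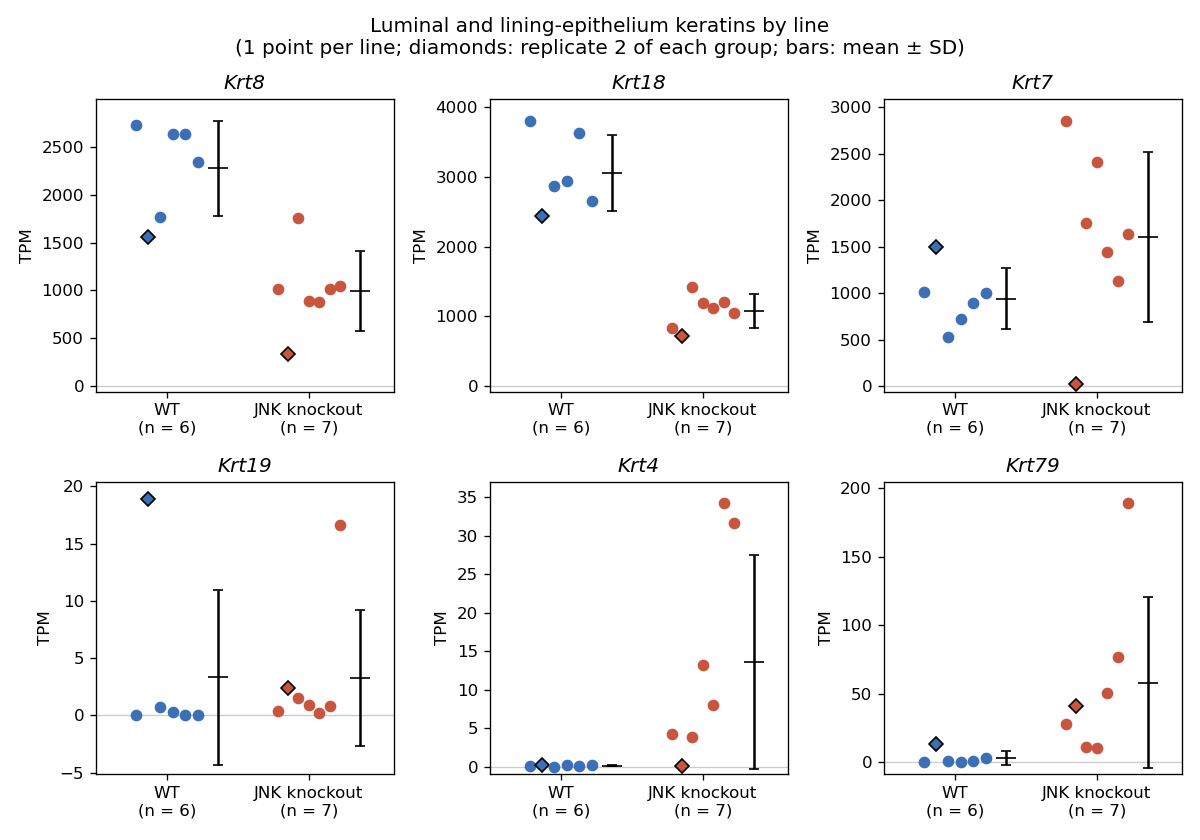
TPM (vertical axis, linear) of the 6 keratins in 6 WT and 7 JNK knockout lines, 1 point per line, with the mean and SD of each group beside the points. Krt18 lies between 2442 and 3810 TPM in WT lines and between 720 and 1426 TPM in knockout lines, and the diamonds mark replicate 2 of each group, where knockout Krt7 is 22.5 TPM.

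Krt18, the type I chain of the main simple-epithelial pair, was the member with the most transcript in all 6 WT lines. It ranged there from 2442 TPM (WT replicate 2) over a median of 2906 to 3810 TPM (WT replicate 1). In the knockout lines it ranged from 720 TPM (replicate 2) over a median of 1121 to 1426 TPM (replicate 3). Every knockout line was below every WT line, a separation in CPM (counts scaled by library size) shown by 1.97% of all genes tested in this direction, 2.08% in the other and 4.05% in either. The group means were 3058 ± 546 TPM (SD, n = 6) and 1080 ± 239 TPM (SD, n = 7). The log2 fold change was -1.26 (SE 0.18, edgeR adjusted p = 0.0026), and the call held in all 13 fits that left out 1 line, at -1.37 to -1.18.

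Krt8, its type II partner, fell less evenly. Its level in WT lines ran from 1555 TPM (replicate 2) over a median of 2484 to 2724 TPM (replicate 1). In knockout lines it ran from 334 TPM (replicate 2) over a median of 1011 to 1757 TPM (replicate 3). The groups overlapped through knockout replicate 3 alone, which lay above WT replicate 2 and just below WT replicate 3 at 1764 TPM, while the other 6 knockout lines were below every WT line. The log2 fold change was -0.97 (SE 0.28, edgeR adjusted p = 0.047). This call sat at the threshold and held in 3 of 13 leave-one-out fits (those without WT replicate 2, knockout replicate 2 or knockout replicate 3). Without any other single line adjusted p was 0.055 to 0.086, while the log2 fold change stayed between -1.13 and -0.82 over all 13 fits.

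Krt8 and Krt18 lie side by side at the end of the type II keratin cluster of chromosome 15, and Krt18 is the only type I gene there. Krt8 (chr15:101996711-102004342, minus strand) and Krt18 (chr15:102028216-102032026, plus strand) are 23.9 kb apart, each reading away from the other (RefSeq, GRCm38.p6). The stretches before these genes are shown because the neighbours fell together. They are RefSeq promoter windows (GRCm38.p6, 250 bases before to 50 after the start), cut to the part that no exon of the GENCODE vM21 annotation touches. The Krt8 stretch is chr15:102004483-102004592 on the minus strand, and the Krt18 stretch is chr15:102027966-102028179 on the plus strand.
Krt8: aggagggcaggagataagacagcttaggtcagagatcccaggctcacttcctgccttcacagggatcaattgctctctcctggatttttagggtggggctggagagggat
Krt18: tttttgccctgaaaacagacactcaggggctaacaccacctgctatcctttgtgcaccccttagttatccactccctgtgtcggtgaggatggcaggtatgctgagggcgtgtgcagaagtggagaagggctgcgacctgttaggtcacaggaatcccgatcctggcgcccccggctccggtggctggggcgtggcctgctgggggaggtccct
Both runs are 5′ to 3′ and hold no capitals, since none of the motifs searched matched in them. The motifs were TGANTCA (bound by AP-1, the JUN and FOS dimers downstream of JNK), TGACGTCA (bound by ATF and CREB factors), TATAAA and GGGCGG (bound by Sp factors), on both strands.

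The full 300-base windows were available for 4 of the 6 genes, Krt8, Krt18, Krt7 and Krt79. None of the 4 windows held TGANTCA or TGACGTCA, which occur in 7.81% and 1.79% of all 32851 windows of that length. TATAAA occurred in the Krt8 window only, as 2 overlapping matches on opposite strands at the annotated start, against 13.6% of all windows. GGGCGG occurred in the Krt7 window only, 4 times, against 35.7% of all windows. The Krt8 and Krt7 sites are printed with capitals on the matched letters. They lie at chr15:102004328-102004357 on the minus strand and chr15:101412260-101412289 on the plus strand, and the Krt7 run holds 2 of the 4 matches.
Krt8 TATA site: ctggcctcttctTTTATAAAgggccttcgc
Krt7 Sp site: ttGGGCGGcggctggGGGCGGtgcgagggc
These matches describe the letters in the windows and were not tested for binding.

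Krt7, the other type II chain of simple epithelium, did not pass the test over all lines. In WT lines it ranged from 532 TPM (replicate 3) over a median of 948 to 1495 TPM (replicate 2). In knockout lines it ranged from 22.5 TPM (replicate 2) over a median of 1632 to 2858 TPM (replicate 1). In TPM, knockout replicates 1, 3, 4 and 7 were above every WT line and replicate 2 was below every WT line. Replicates 5 and 6, at 1443 and 1127 TPM, were within the upper WT range. In CPM knockout replicate 5 was also above every WT line, at 1816 CPM against at most 1147 CPM (WT replicate 2). Over all 13 lines the log2 fold change was 1.00 (SE 0.62, edgeR adjusted p = 0.33), with 4 of 7 knockout lines above every WT line in TPM. Without knockout replicate 2 it was 1.22 (adjusted p = 0.016), with 6 knockout lines at 1870 ± 644 TPM (SD, n = 6) against 943 ± 327 TPM in WT lines (SD, n = 6). In the other 12 leave-one-out fits adjusted p was 0.31 to 0.47. Over all lines the log2 fold change was smaller with limma-voom (0.31, adjusted p = 0.87) and with limma on log2(TPM + 1) and log2(TPM + 0.1) (0.10 and 0.09, adjusted p = 0.96 in both).

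Knockout replicate 2 was also the lowest knockout line for Krt8, Krt18 and Krt4, but not for Krt19 or Krt79. In the same line Cdh1, the gene of E-cadherin, was 33.1 TPM against 122 to 278 TPM in the other knockout lines, and Acta2, a smooth muscle actin of myoepithelial cells, was 1651 TPM against 0.26 to 135 TPM. The part of whatever sets these levels apart in its Krt7 level was not tested.

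Krt19, a small type I keratin of ducts and luminal progenitors, was low in both groups. In WT lines it ranged from 0 over a median of 0.155 to 18.9 TPM, the last in replicate 2. WT replicates 1, 5 and 6 held 0 reads, which at this depth allows up to 0.0612 to 0.0710 CPM (3 reads per line, counting error only). In knockout lines it ranged from 0.20 TPM (replicate 5) over a median of 0.87 to 16.6 TPM (replicate 7). So 5 of 6 WT lines and 4 of 7 knockout lines were at or under 1 TPM, and 1 line of each group carried most of the reads. The groups were not called different (edgeR adjusted p = 0.95, with a log2 fold change of 0.19, SE 1.54). Its size rested on those lines, at 4.11 without WT replicate 2 and -1.48 without knockout replicate 7, neither called (adjusted p between 0.12 and 0.997 over the 13 fits).

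Krt4 rose from near absence. The WT lines held 38 reads of it in all, with levels from 0 (replicate 3) over a median of 0.135 to 0.28 TPM (replicate 2). The knockout lines held 5183 reads, with levels from 0.06 TPM (replicate 2) over a median of 7.95 to 34.2 TPM (replicate 6). Here 6 of 7 knockout lines, at 3.80 TPM or more, were above every WT line, and replicate 2 was within the WT range. The fitted log2 fold change was 6.85 (SE 1.19, edgeR adjusted p = 0.0064) and stayed called in all 13 fits that left out 1 line, at 6.48 to 7.19. With limma-voom it was not called (adjusted p = 0.17). The known type I partner of keratin 4 in lining epithelia is keratin 13. Krt13 was below the filter, with at most 0.25 TPM in WT lines and 0.18 to 6.18 TPM in knockout lines.

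Krt79, the neighbour of Krt4, rose as well. It ranged from 0.11 TPM (replicate 4) over a median of 0.63 to 12.9 TPM (replicate 2) in WT lines. In knockout lines it ranged from 9.98 TPM (replicate 4) over a median of 41.2 to 189.6 TPM (replicate 7). The groups overlapped only through WT replicate 2, which was above knockout replicates 3 (10.7 TPM) and 4. The log2 fold change was 4.58 (SE 1.18, edgeR adjusted p = 0.031). The call was lost without WT replicate 1, 3, 5 or 6 or knockout replicate 7 (adjusted p from 0.051 to 0.061), with a log2 fold change of 3.93 without knockout replicate 7 and 6.23 without WT replicate 2. Krt4 and Krt79 lie 4.6 kb apart at chr15:101918535-101924735 and chr15:101929332-101940324, both on the minus strand.

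Ratios of TPM within a line do not depend on scaling between lines. Krt18/Krt8 was above 1 in all 6 WT lines, from 1.12 over a median of 1.39 to 1.63. In knockout lines it ran from 0.811 over a median of 1.20 to 2.16, and was under 1 in 3 of 7. The mean log2 ratio was 0.44 ± 0.23 (SD, n = 6) in WT and 0.22 ± 0.49 (SD, n = 7) in knockout lines. That difference of -0.22 did not exceed the spread between lines (exact permutation p = 0.34 over 1716 splits, two-sided, adjusted p = 0.34 over the ratios tested). Without knockout replicate 2, where the ratio was highest, the difference was -0.37 (exact permutation, adjusted p = 0.0498), and without WT replicate 2 as well it was -0.32 (exact permutation, adjusted p = 0.093).

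Krt18/Krt7 was below every WT line in 6 of 7 knockout lines. It ran from 1.63 (replicate 2) over a median of 3.91 to 5.40 (replicate 3) in WT lines. Of the knockout lines, 6 lay between 0.292 (replicate 1) and 1.076 (replicate 6), while replicate 2 was at 31.98. The difference of mean log2 ratios was -1.60 over all lines (1.75 ± 0.61 in WT, SD, n = 6, and 0.15 ± 2.22 in knockout lines, SD, n = 7; exact permutation p = 0.11, adjusted p = 0.23). Without knockout replicate 2 it was -2.41 (exact permutation, adjusted p = 0.0043). Before adjustment that p is the smallest the permutation can give, since the groups do not overlap once this line is left out. Ratios with Krt19 had no logarithm in the 3 WT lines at 0 reads. With 1 TPM added to both terms, Krt19/Krt8 differed by 1.77 and Krt19/Krt7 by 0.38 on the log2 scale (exact permutation, adjusted p = 0.22 and 0.80 over 4 ratios).

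**Figure D2:**
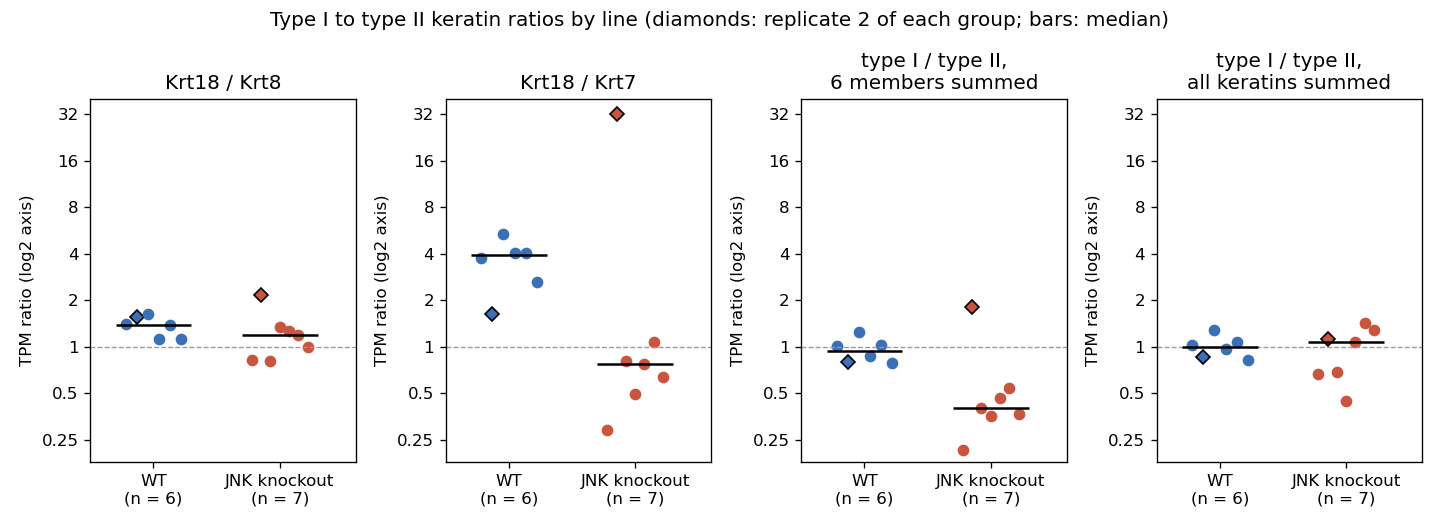
TPM ratios of type I to type II keratins by line on a log2 axis, for Krt18/Krt8, Krt18/Krt7, the 6 genes summed by type and all keratins summed by type, with the median of each group as a bar and replicate 2 of each group as a diamond. In Krt18/Krt7 the 6 knockout lines other than replicate 2 lie between 0.292 and 1.076, below all WT lines, whereas the ratio over all keratins overlaps between the groups.

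Summed by type, the 6 genes were near balance in WT lines and had a type II excess in most knockout lines. The type I to type II ratio of the members was 0.792 to 1.25 in WT lines (median 0.948). In 6 knockout lines it was 0.214 to 0.539, and in replicate 2 it was 1.82. The other keratins were typed by their chromosome, which gave 28 type I and 23 type II genes in all. This left out 1 keratin without a position in the reference used. Over the typed keratins the ratio was 0.829 to 1.29 in WT lines (median 0.998) and 0.450 to 1.43 in knockout lines (median 1.07). So the groups overlapped on that scale, and 3 of 7 knockout lines lay below every WT line. These sums are given as values with no test.

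The order of the genes differed between lines. In every WT line Krt18 was highest and Krt8 second. Among knockout lines Krt7 was highest in 4 (replicates 1, 4, 5 and 7), Krt18 in 2 (replicates 2 and 6) and Krt8 in replicate 3, where Krt8 and Krt7 were nearly equal at 1757 and 1752 TPM. Krt7 made up 15.2 ± 6.19% of the members' TPM in WT lines (SD, n = 6) and 37.98 ± 18.6% in knockout lines (SD, n = 7), with 2.01% in replicate 2. Krt4, Krt19 and Krt79 stayed a small part, with Krt79 highest among them at 4.78% in knockout replicate 7.

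The members held 94.8 to 98.5% of all keratin TPM in WT lines (median 97.2%). In knockout lines they held 4.56% (replicate 2) to 87.1% (replicate 4), with a median of 55.9%, and each knockout line was below every WT line. Their summed level was 5171 to 7547 TPM in WT and 1121 to 4952 TPM in knockout lines, so the groups did not overlap in that sum either. Krt8 and Krt18 alone took 69.7 to 87.8% of keratin TPM in WT lines and 4.29 to 40.2% in knockout lines, without overlap. These shares share their denominator with the basal keratins, which were far higher in the knockout lines.

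**Figure D3:**
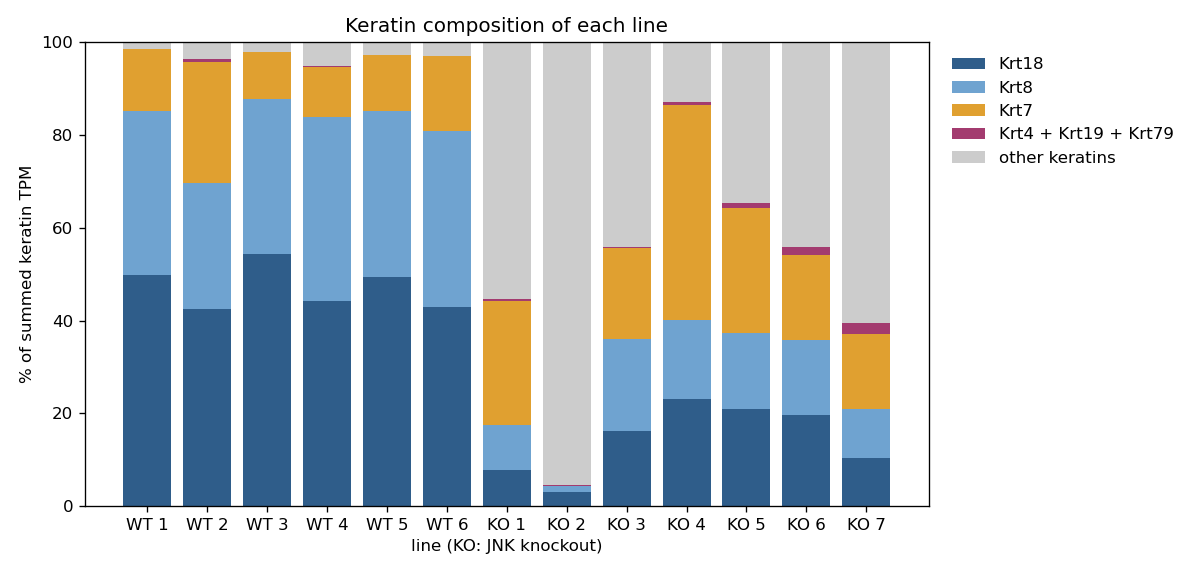
Share of summed keratin TPM (percent, vertical axis) taken by Krt18, Krt8, Krt7, the sum of Krt4, Krt19 and Krt79, and all other keratins, in each WT and JNK knockout (KO) line. The 6 genes together hold at least 94.8% in WT lines, and between 4.56% (KO 2) and 87.1% (KO 4) in knockout lines.

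Of the 46 other keratins, 14 were tested (edgeR, adjusted over all genes tested). Of these, 7 rose, 0 fell and 7 did not pass the test, beside 4.33% higher and 4.17% lower among all genes tested. The risers were Krt5, Krt14, Krt17, Krt6a, Krt6b, Krt16 and Krt75, keratins of basal, activated or hair follicle epithelium. Of these, Krt16 was near the threshold (edgeR adjusted p = 0.049) and held its call in 2 of 13 leave-one-out fits, those without WT replicate 6 or knockout replicate 4. With limma-voom Krt5, Krt6b, Krt17 and Krt16 were not called (adjusted p = 0.053, 0.056, 0.060 and 0.12), and Krt75 was not called with limma on log2(TPM + 1) (adjusted p = 0.084). Among the risers, Krt5, Krt6a, Krt6b and Krt75 held 147, 16, 7 and 5 reads over all WT lines and passed the filter through the knockout group. So those higher calls come from genes kept because of the group in which they were high. Krt14, a basal type I chain, was 60.8 to 288 TPM in WT lines and 357 to 8728 TPM in knockout lines, already above 0 in every WT line. Its partner Krt5 was at most 0.91 TPM in WT lines and 69.9 to 9482 TPM in knockout lines. Krt80, a type II keratin beside Krt7 on the chromosome, was 21.8 ± 11.1 TPM in WT and 12.2 ± 12.5 TPM in knockout lines and was not called (edgeR adjusted p = 0.50, log2 fold change -0.69, SE 0.61). Krt15 also missed it (2.24 ± 3.30 against 46.3 ± 70.0 TPM, edgeR adjusted p = 0.061).

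In the keratin cluster of chromosome 15, 10 of the 24 keratin genes placed there were tested. Of these, 6 rose and 2 fell, beside 4.33% higher and 4.17% lower among all genes tested. The risers Krt75, Krt6b, Krt6a, Krt5, Krt4 and Krt79 passed the filter through the knockout group, with 5, 7, 16, 147, 38 and 791 reads over all WT lines. Krt8 and Krt18 were the ones that fell, and they occupy the last places in genome order. Krt7, which was not called, lies 569 kb from Krt8 near the opposite end. Krt4 and Krt79 are separated from the risers Krt75, Krt6b, Krt6a and Krt5 by 8 keratin genes under the filter. Krt19 lies apart in the type I cluster of chromosome 11 (chr11:100140810-100145926).

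**Figure D4:**
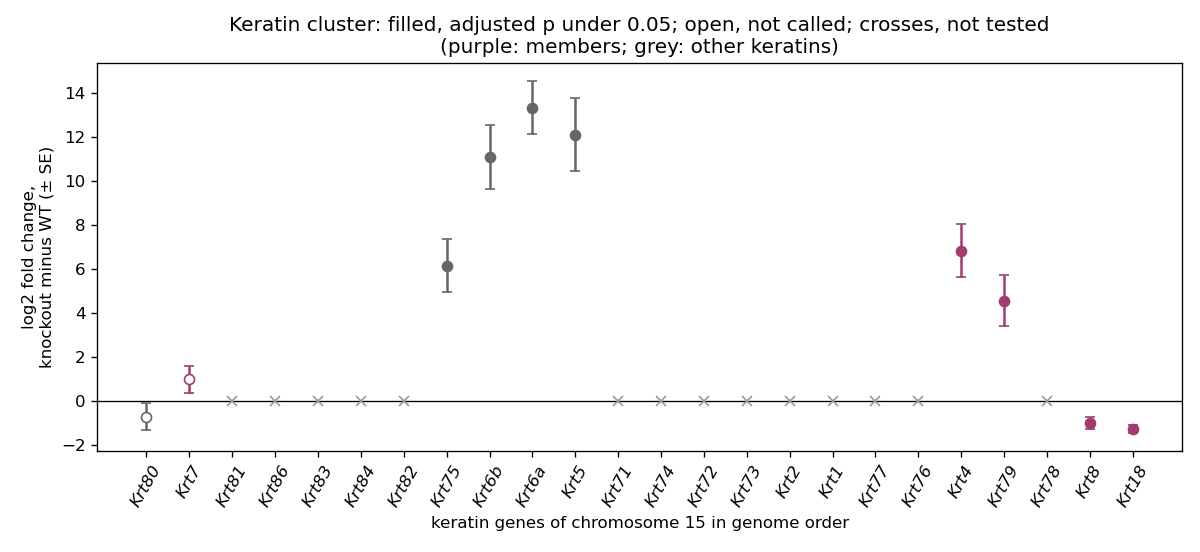
Log2 fold change (knockout minus WT, vertical axis, bars are approximate SE) of the 24 keratin genes placed on chromosome 15 in genome order, with filled points for adjusted p under 0.05, open points for genes not called and crosses for genes not tested. Krt4 (6.85) and Krt79 (4.58) lie above 0, and Krt8 (-0.97) and Krt18 (-1.26) at the right end lie below it.

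Levels of the members were also compared with each other across lines of a group. Krt8 and Krt18 had a Pearson r of 0.74 over the 6 WT lines (exact permutation p = 0.10, adjusted p = 0.20; Spearman rho 0.94, p = 0.017, adjusted p = 0.10) and 0.81 over the 7 knockout lines (exact permutation p = 0.025, adjusted p = 0.15; rho 0.61, p = 0.17, adjusted p = 0.50). Without the 2 lines farthest from the median of Krt8 the values were 0.85 in WT and -0.41 in knockout lines, so the knockout value rested on those lines. Krt7 and Krt8 had an r of -0.17 in WT (rho -0.03, exact permutation p = 0.75 and 1, adjusted p = 0.90 and 1) and 0.86 in knockout lines (rho 0.36, exact permutation p = 0.068 and 0.44, adjusted p = 0.20 and 0.79), and without 2 lines -0.26 and 0.03. In knockout lines Krt19 had an r of -0.23 with Krt7 (rho -0.21, exact permutation p = 0.50 and 0.66, adjusted p = 0.75 and 0.79) and of -0.06 with Krt8 (rho 0.29, exact permutation p = 0.90 and 0.56, adjusted p = 0.90 and 0.79). Without 2 lines these were 0.15 and 0.62. None of the 6 relations passed the correction.

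The genes whose log2 CPM pattern over the 13 lines was most like each member were taken from 10328 genes with at least 5 CPM, keratins left out, by Pearson r as a description. These values hold the group difference as well, so r within each group is given for 1 gene per member. For Krt8 they were Epha1, an Eph receptor (0.93, and 0.61 within WT and 0.96 within knockout lines), Kdm1b, a histone demethylase, and Tead2, a TEAD transcription factor. Tead2 was also nearest to Krt18 (0.95, and 0.56 within WT and 0.94 within knockout lines), before Crem and Acsl4. Krt7 was nearest to Kdf1, a keratinocyte differentiation factor (0.96, and 0.00 within WT and 0.98 within knockout lines), Eps8l1 and Tmem54. For Krt19 they were Cmpk1 (0.89, and 0.90 within WT and 0.83 within knockout lines), Klk6 and Fyttd1. Krt4 was nearest to Dchs1 (0.94, and 0.27 within WT and 0.91 within knockout lines), Pdlim2 and Slc5a6. Genes with a pattern like that of Krt79 included Zbtb7c (0.93, and 0.80 within WT and 0.66 within knockout lines) and Timp3. Each r within knockout lines includes replicate 2, the lowest knockout line for Krt8, Krt18, Krt7 and Krt4. Krt7 was 22.5 TPM there and 1127 TPM or more in the other knockout lines. No r with these genes was computed without that line.

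Among all genes tested 4.33% rose and 4.17% fell, and the counts of each list below stand beside those shares. Of 16 linkers and partners, among them the desmosomal and plakin genes Dsp, Plec, Ppl and Jup, 0 rose and 1 fell, with a median log2 fold change of 0.11. It was Pkp2, a plaque protein of desmosomes (43.9 ± 6.26 against 25.6 ± 6.56 TPM, log2 fold change -0.58, SE 0.16, edgeR adjusted p = 0.037, and called in leave-one-out fits only without WT replicate 2, WT replicate 5, knockout replicate 2 or knockout replicate 6, at adjusted p = 0.053 to 0.070 in the others). The lowest adjusted p among the other 15 was 0.083, of Sfn, the stratifin gene (42.6 TPM in WT and 132 TPM in knockout lines on average).

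Of 8 other intermediate filament genes tested, 0 rose and 2 fell, beside 4.33% and 4.17% of all genes tested. Their median log2 fold change was 0.28. Nes, the nestin gene, was 105 ± 62.5 TPM in WT and 2.76 ± 5.36 TPM in knockout lines (log2 fold change -5.07, SE 1.04, edgeR adjusted p = 0.012). Without knockout replicate 2, which held the highest knockout value of Nes (14.8 TPM), its log2 fold change was -6.98. Gfap was at most 0.51 TPM in any line. Its call (edgeR adjusted p = 0.041) held in 3 of 13 leave-one-out fits, those without WT replicate 2, knockout replicate 4 or knockout replicate 6, and was lost with limma-voom (adjusted p = 0.060). Vim did not pass the test (edgeR adjusted p = 0.52).

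Of 23 tested transcription factors of epithelium and of AP-1, 1 rose and 0 fell, beside 4.33% and 4.17% of all genes tested. Their median log2 fold change was -0.01. Junb, a JUN family member, rose (log2 fold change 0.71, SE 0.16, edgeR adjusted p = 0.019), but was not called with limma on log2(TPM + 1) (0.50, adjusted p = 0.11). Gata3, the main luminal factor, was 71.2 TPM in WT and 27.6 TPM in knockout lines on average and did not pass the test (edgeR adjusted p = 0.14). Of 15 tested luminal surface and secretory genes, 1 rose (Ly6d) and 1 fell (Muc1), beside 4.33% and 4.17% of all genes tested. Their median log2 fold change was -0.71. Ly6d held 130 reads over all WT lines against 17456 over all knockout lines and passed the filter through the knockout group. So its higher call comes from a gene kept because of the group in which it was high. The Muc1 values overlapped between the groups. Its call was lost without WT replicate 2 or 3 or knockout replicate 1, 3 or 7 (edgeR adjusted p = 0.057 to 0.066) and with limma-voom (adjusted p = 0.20). Epcam and Cdh1, defining genes of epithelium, had log2 fold changes of -1.04 (SE 0.46, edgeR adjusted p = 0.17) and -0.71 (SE 0.34, edgeR adjusted p = 0.20).

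Markers of other cell types were low, with exceptions. The 6 endothelial markers summed to at most 1.14 TPM in any line and the 4 adipocyte markers to at most 0.12 TPM. Of the leukocyte markers, Ptprc was at most 0.06 TPM and Cd3e at most 0.07 TPM in any line, and the list's sum (3.68 to 33.5 TPM in WT, 3.57 to 18.5 TPM in knockout lines) was mostly Cd68. The 8 fibroblast markers summed to 4.79 to 162 TPM in WT and 0.98 to 16.7 TPM in knockout lines. Of 7 tested, 2 fell (Col1a1 and Col1a2), beside 4.17% of all genes tested. Col1a2 reached 52.6 TPM in WT replicate 3 and at most 4.44 TPM in any other line. Without WT replicate 3 the log2 fold change of Col1a2 went from -6.72 to -3.80 (still called), and that of Col1a1 from -4.40 to -1.91 (edgeR adjusted p = 0.053). The Col1a1 call was also lost without knockout replicate 1 or 7 (adjusted p = 0.051 and 0.052), and both calls with limma-voom (adjusted p = 0.16). The 8 basal and myoepithelial markers summed to 69.3 to 310 TPM in WT and 578 to 23391 TPM in knockout lines. Of 7 tested, 4 rose (Krt5, Krt14, Krt17 and Trp63), beside 4.33% of all genes tested. Of these limma-voom called Krt14 alone (Trp63 adjusted p = 0.072). Krt5 passed the filter through the knockout group, in which it was high. Acta2, Cnn1 and Oxtr were not called. Oxtr went the other way, at 4.96 TPM in WT and 0.37 TPM in knockout lines on average (log2 fold change -3.58, edgeR adjusted p = 0.10). None of the 8 was at 0 in every line. The sum of this list was higher in the group where Krt8 and Krt18 were lower, and its part in that result was not tested.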

How the data were processed

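RNA-seq of 6 WT and 7 JNK knockout mouse mammary tumour lines was analysed at gene level. The deposited expected counts and TPM were made by the authors with RSEM after cutadapt, on builds mm10 and GRCm38, per the submitters' processing notes. Versions, annotation release, aligner and strand use: not given in the sources used here. RSEM shares reads among similar genes, so values of keratins with close copies (Krt6a and Krt6b, and Krt8 and Krt18, which have processed pseudogenes) are uncertain. Expected counts were rounded, filtered with filterByExpr (13058 of 23845 genes kept), scaled by TMM and compared with edgeR 4.0.16 (quasi-likelihood, R 4.3.3), with Benjamini-Hochberg adjustment over all genes tested. Alternatives used limma 3.58.1 and DESeq2 1.42.0. Each SE is approximate, computed as the size of the log2 fold change over √F. Ratios of TPM were compared by exact permutation over all splits of the lines. Ratios with Krt19 could not be logged at 0 TPM, so only 2 of 4 planned ratios entered the main family. Replicates were numbered in accession order.

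The members and lists were chosen with earlier results of these data known. Genes named are the 6 members, other keratins that passed the test or averaged at least 10 TPM in a group, Mapk8 and Mapk9, up to 4 called members of each list (or the 2 with the lowest p), and the 3 genes most like each member, except that items withheld for evaluation are not reported here. Other names (Krt13, Sfn, Gata3, Vim, Acta2, Epcam, Cdh1 and list examples) were chosen after their values were seen.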

Additional observations from a re-analysis of the deposited data

Results flagged for a closer look

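In 32 sets of values (each member and ratio in each group), the highest or lowest line stood farther from its nearest neighbour than a 95% limit for such gaps in 9. Chance gives about 1 in 20, and the sets share lines and genes. Knockout replicate 2 accounts for 5: the lowest log2 TPM of Krt8 (8.38), Krt7 (4.49) and Krt4 (-4.06), the highest log2 Krt18/Krt7 (4.999) and the highest type I to type II ratio of the members (1.82). Knockout replicate 7 had the highest Krt19 (16.6 TPM) and Krt79 (189.6 TPM) of its group. WT replicate 2 had the highest Krt19 (18.9 TPM) and Krt79 (12.9 TPM) of its group.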

How the results depend on the processing

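No paired analysis was possible because the labels give no replicate numbers shared between the groups. Krt18 was called under each alternative run. Krt8 was not called with upper-quartile scaling (-0.95, adjusted p = 0.054), with no filter (-0.98, adjusted p = 0.055) or with WT replicates 4 and 5 as 1 sample (-0.93, adjusted p = 0.084), so 1 member was lower there. Krt79 was not called with WT replicates 4 and 5 as 1 sample (4.34, adjusted p = 0.051) and Krt4 not with limma-voom (6.08, adjusted p = 0.17), leaving 1 member higher in each. DESeq2 gave no adjusted p for Krt19, and the filter of CPM above 1 in at least 6 lines removed it. Without both lines numbered 2 (chosen after seeing the data) Krt7 was at 1.39 (adjusted p = 0.010) and log2 Krt18/Krt7 at -2.62 (exact permutation, adjusted p = 0.0043). Before adjustment the p of that ratio is again the smallest its permutation can give. Over the fits that left out 1 line, log2 fold changes ran from -1.13 to -0.82 for Krt8, -1.37 to -1.18 for Krt18, -1.48 to 4.11 for Krt19, 0.82 to 1.22 for Krt7, 6.48 to 7.19 for Krt4 and 3.93 to 6.23 for Krt79, with 1 to 3 members higher and 1 to 2 lower. Log2 Krt18/Krt8 ran from -0.37 to -0.13 and log2 Krt18/Krt7 from -2.41 to -1.29. The counts of genes over those fits were 324 to 649 higher and 316 to 592 lower. They were 1347 and 1081 with DESeq2, 260 and 998 on log2(TPM + 1), and 297 and 963 on log2(TPM + 0.1), where the median shift over genes from edgeR was -0.22 and -0.23. The cause was not tested.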
